A study of Homo sapiens with 8 samples.

Results

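The genes described here are 34 members of the unfolded protein response (UPR) and the integrated stress response (ISR), measured in HepG2 cells with and without ectopic GRHL2. They were chosen by name, from a list of endoplasmic reticulum (ER) stress genes and ATF4 target genes, and all 34 were found by symbol among the 17561 genes of the expression table. HepG2 is a human hepatocarcinoma cell line, and GRHL2 is a transcription factor of epithelial cells. RNA-seq was performed on 4 libraries of cells transfected with pGRHL2 and 4 libraries of cells transfected with pcDNA3, which the study describes as independent biological replicates, and RNA was collected 48 h after transfection. The pGRHL2 plasmid carried the GRHL2 cDNA with a flag tag, driven by the promoter of EEF1A1, together with enhanced green fluorescent protein, whereas pcDNA3 is a commercial vector without these parts, so that the groups differed in more than GRHL2. Cells of both groups received the same transfection reagent and were kept in medium with serum, insulin and dexamethasone. No library of untransfected or stressed cells was analysed here.

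Secretory and membrane proteins fold in the ER, where chaperones bind them and disulfide isomerases join their cysteines. When unfolded proteins accumulate, the ER membrane sensors IRE1 (encoded by ERN1), PERK (EIF2AK3) and ATF6 start the UPR, in which spliced XBP1 and cleaved ATF6 raise the transcription of chaperone and degradation genes. PERK and other kinases phosphorylate the initiation factor eIF2, which lowers translation in general but favors that of ATF4, the transcription factor of the ISR and an inducer of amino acid enzymes. Hepatocytes secrete most plasma proteins and depend on this machinery.

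The regulatory words that connect these genes were read first, in RefSeq promoters of GRCh38.p14 covering 250 bases before to 50 bases after each annotated start. Of the 34 members, 32 matched the promoter table, with 46 promoters between them. The ER stress response element, CCAAT followed after 9 bases by CCACG, is bound by NF-Y together with ATF6 or XBP1. It was found on either strand in 7 of 32 members (21.9%), against 25 of 27305 genes with a promoter (0.0916%). These stretches are shown 5′ to 3′ on the strand of the gene because they are the words that set this list apart most from other promoters. Capitals mark CCAAT and CCACG, or CGTGG and ATTGG where the element lies on the other strand.
HSPA5: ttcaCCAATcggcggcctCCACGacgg
HSP90B1: ctgaCCAATcggaaggagCCACGcttc
HSP90B1, other strand: ggtgCGTGGtgcggcgcgATTGGtggg
CALR, other strand: cacgCGTGGtcgaccatcATTGGtcgg
CANX: ccggCCAATcttcacactCCACGaaga
PDIA6: cggaCCAATgagccgcagCCACGgctt
CRELD2, other strand: ctctCGTGGcgaactcggATTGGgcca
XBP1: ctggCCAATcgcggagggCCACGaccg

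In these stretches the element began 66 bases upstream of the start of HSPA5 (stretch at chr9:125241387-125241413) and 52 bases upstream of the start of XBP1 (chr22:28800599-28800625). The pair of elements of HSP90B1 began 194 and 89 bases upstream (chr12:103930212-103930238 and chr12:103930317-103930343). The element of CALR began 225 bases upstream (chr19:12938380-12938406), that of PDIA6 86 bases upstream (chr2:10812849-10812875) and that of CRELD2 80 bases upstream (chr22:49918550-49918576). CANX has several annotated starts, and its element (chr5:179698774-179698800) lay 151 and 189 bases upstream of 2 of them. Of the carriers, 6 were chaperones or folding enzymes (of 10 with a promoter, 60%) and the other was XBP1.

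The C/EBP-ATF response element, the site of ATF4 with C/EBP partners, was searched as TGATGCAA, TGATGAAA, TGATGTAA and TGATGGAA on both strands. It was found in 4 of 32 members (12.5%), against 1217 of 27305 genes (4.46%). The UPR element TGACGTGG, whose CGTGG is the word CCACG read on the other strand, was found in 1 of 32 members (3.12%, HYOU1) and in 0.927% of all genes. The palindromic GRHL2 word AACCGGTT was found in 1 of 32 members (3.12%, MTHFD2), against 45 of 27305 genes (0.165%). The upstream matches are shown because they include the single GRHL2 word among the members, with the word in capitals.
ASNS: ggcaTGATGAAActtc
CHAC1, other strand: gccgTTGCATCActcc
HERPUD1, other strand: cgggTTGCATCAgccc
HYOU1: cccgTGACGTGGtcca
MTHFD2: agaaAACCGGTTggcc

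These words began 68 bases upstream of the start in ASNS (chr7:97872465-97872480), 209 in CHAC1 (chr15:40953258-40953273), 176 in HERPUD1 (chr16:56931962-56931977), 188 in HYOU1 (chr11:119057382-119057397) and 135 in MTHFD2 (chr2:74198476-74198491). The remaining match to the C/EBP-ATF element, in CREB3L2, lay downstream of the start. The members were listed as ER stress or ATF4 targets, so the shares describe the list, and a word in a promoter is not a measured binding site.

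All values are on the log2 scale that the authors deposited, after division by transcript length, and each fold change (log2 FC) is the pGRHL2 value minus the pcDNA3 value. For each of 17561 genes, libraries with the same number had one and the same mean for all 4 numbers, so they were compared as 4 pairs, with the replicate number as a block in limma. In such a table a value above its group in 1 library is mirrored below its group in the partner library, and the groups of a gene do not overlap exactly when its 4 pair differences share a sign. The depth of sequencing behind each value is unknown. Library medians lay between 6.71 and 6.73. GRHL2 itself, the check of the labels, had log2 values of 16.22 to 16.87 with pGRHL2 and 6.61 to 7.25 with pcDNA3, a log2 FC of 9.48 ± 0.57 (SD over 4 pairs; adjusted p = 4.84e-08 in limma). Genes that mark HepG2 cells were high, with mean log2 values of 16.88 for ALB and 17.11 for AFP, while PTPRC and CD3E (leukocytes), CDH5 and KDR (endothelium) and COL1A2, COL3A1 and DCN (fibroblasts) were not listed in the table. Other genes of those marker lists were listed, with mean log2 values of 13.27 for LYZ and 4.02 for CD14 (leukocytes), 5.43 for PECAM1 and 1.91 for VWF (endothelium), and 5.82 for COL1A1 and 5.08 for PDGFRB (fibroblasts). The cholangiocyte markers KRT19, EPCAM, SOX9 and KRT7 were listed too, with mean log2 values of 13.90, 11.61, 9.57 and 5.35. In limma 0 of these marker genes passed the adjusted test. Of those named so far, 2 had an unadjusted p under 0.05, namely COL1A1 (log2 FC 0.20, adjusted p = 0.0838) and KRT7 (log2 FC 0.19, adjusted p = 0.097). The hepatocyte marker FGB also had an unadjusted limma p under 0.05 (0.0303, log2 FC 0.28, adjusted p = 0.249).

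The stress response genes were mostly abundant transcripts in both groups. Their median mean level was 10.5 on the deposited log2 scale per transcript length, against 6.72 for all genes, and 32 of 34 lay at 5 or above. The highest levels were those of CALR (13.55), ATF4 (12.79), HSP90B1 (12.70), HSPA5 (12.67) and PDIA3 (12.56). The lowest were those of CHAC1 (0.59), a glutathione-degrading enzyme, and ASNS (2.56), asparagine synthetase. The transformation used by the authors shrinks differences of weakly counted genes, so the fold changes of CHAC1 and ASNS may be understated.

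**Figure D1:**
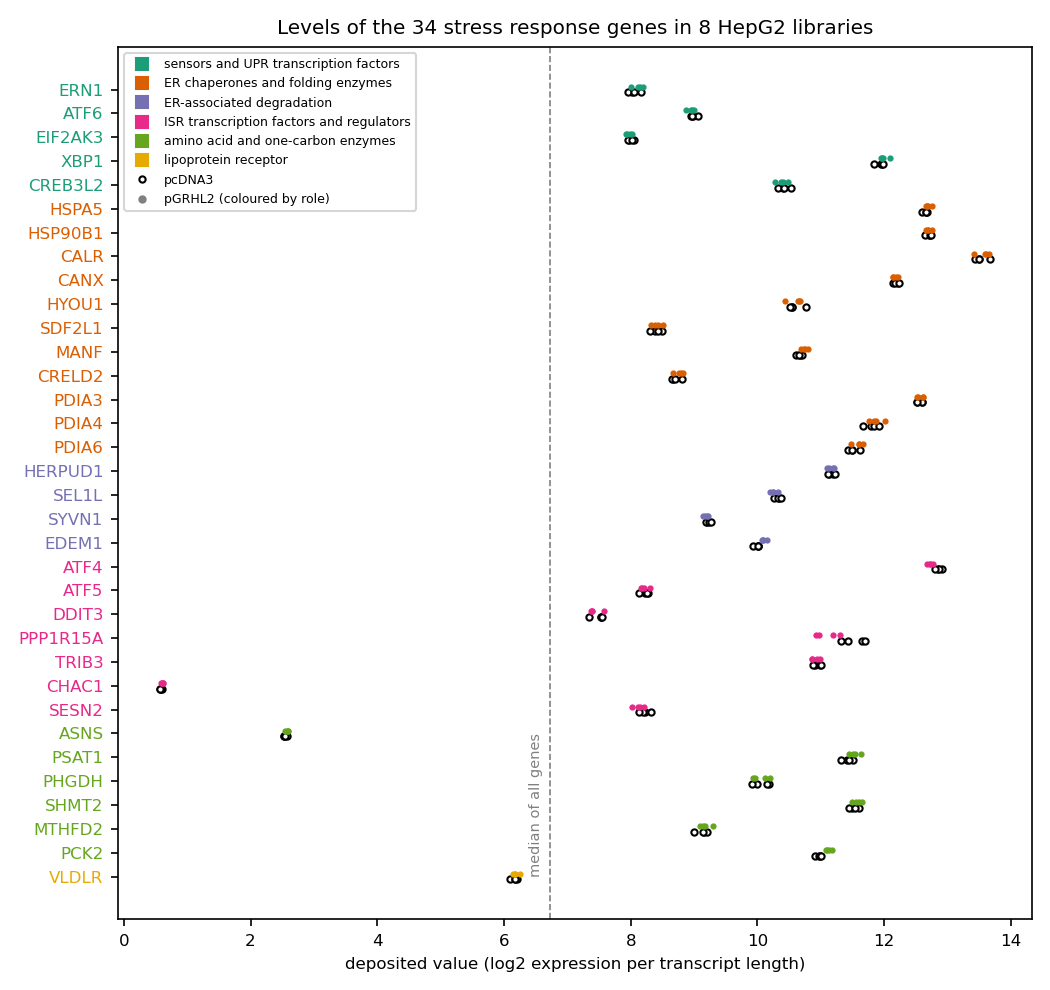
Deposited log2 values per transcript length of the 34 genes in each library, with pGRHL2 libraries as filled points colored by role and pcDNA3 libraries as open circles. Most genes lie to the right of the dashed line at the median of all genes (6.72), CHAC1 (0.59) and ASNS (2.56) lie far to its left, and only PPP1R15A shows a visible distance between the groups on this scale.

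The question was whether GRHL2 ectopic expression came with a stress response. At a limma adjusted p under 0.05 (Benjamini-Hochberg over all genes), 0 of 34 members were called, against 2.19% of all genes (1.69% higher and 0.501% lower with pGRHL2). At an unadjusted limma p under 0.05, 3 of 34 members passed (8.82%), against 16.0% of all genes. The groups did not overlap in 4 of 34 members (11.8%), namely EDEM1 and PCK2 with higher and ATF4 and PPP1R15A with lower values in pGRHL2, against 24.0% of all genes. None of these shares exceeded its background over all genes. The median log2 FC of the 34 genes was 0.011, with 19 above 0 and 15 below, while the median of all genes was 0.0017. The range ran from -0.42 (PPP1R15A) to 0.15 (PCK2).

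A count of 0 does not show that the genes were equal in both groups. The intervals bound the differences on the deposited scale only, which is shrunken for weakly counted genes. The 95% limma interval of the log2 FC lay within a 1.5-fold change in either direction for 33 of 34 members, the exception being PPP1R15A, and within a 1.2-fold change for 32 of 34 (94.1%), the exceptions being PPP1R15A and PCK2. Without CHAC1 and ASNS, these counts were 31 and 30 of 32. Over all genes, 84.7% of intervals lay within a 1.2-fold change. Since the values average over all cells of a culture, fewer cells with a transcript and less of it per cell cannot be told apart. Without the replicate block, 4 of 34 members were called (11.8%, against 18.5% of all genes in that fit). With libraries weighted by limma's arrayWeights, PPP1R15A alone was called (2.94% of members, against 4.12% of all genes in that fit).

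**Figure D2:**
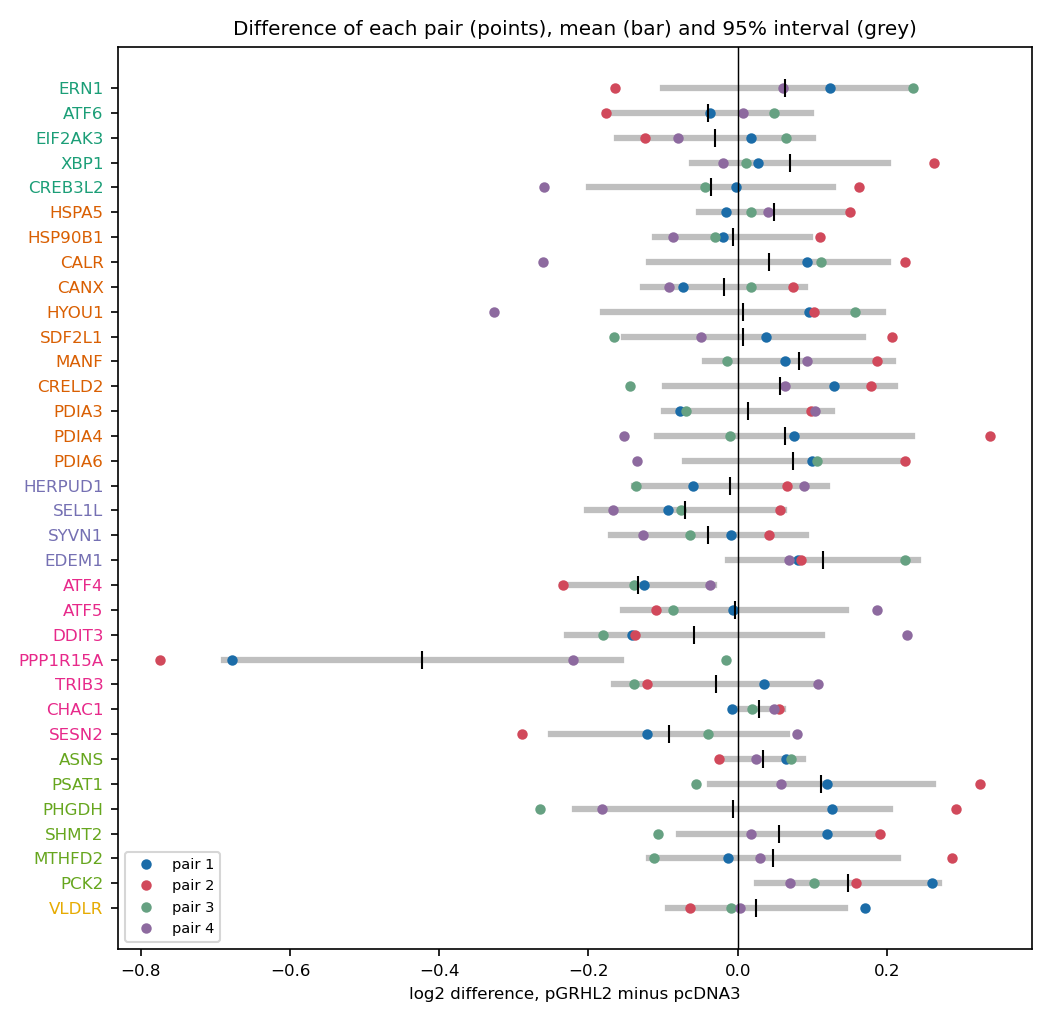
Difference of log2 values (pGRHL2 minus pcDNA3) of the 34 genes in each of the 4 pairs (colored points), their mean (black bar) and its 95% limma interval (gray), with gene names colored by role. All intervals but those of ATF4, PPP1R15A and PCK2 include 0, and PPP1R15A (mean -0.42) has the widest interval, with points between -0.77 and -0.02.

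Among the sensors and transcription factors of the UPR, 0 of 5 genes passed even an unadjusted p under 0.05, and the median log2 FC was -0.030, which became 0.0068 once trends on transcript length, level and GC content were removed. XBP1, which encodes the transcription factor made after splicing by IRE1, had log2 values of 11.98, 12.10, 11.97 and 11.96 in pGRHL2 libraries 1 to 4 and 11.95, 11.83, 11.96 and 11.98 in pcDNA3 libraries 1 to 4. The groups overlapped, and the only wide gap was that of pair 2. The log2 FC of XBP1 was 0.07 ± 0.13 (SD over 4 pairs; adjusted p = 0.623 in limma). Gene-level values do not separate spliced from unspliced XBP1 RNA. The log2 FC was 0.06 for ERN1, -0.03 for EIF2AK3, -0.04 for ATF6 and -0.04 for CREB3L2, an ER-bound relative of ATF6, with adjusted p values of at least 0.745.

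The ER chaperones and folding enzymes were the most abundant group, with a median level of 11.84. Of these 11 genes, 0 passed an unadjusted p under 0.05 and 9 had a log2 FC above 0, with a median of 0.042 and a range from -0.02 to 0.08. Under other scalings and with trends removed, 9 to 11 of them were above 0, with medians between 0.0226 and 0.0553. HSPA5 encodes BiP, the Hsp70 chaperone that holds the sensors inactive and serves as the usual readout of the UPR. Its log2 values were 12.67, 12.75, 12.68 and 12.69 with pGRHL2 and 12.68, 12.60, 12.66 and 12.65 with pcDNA3. The groups overlapped in a narrow band, and the log2 FC was 0.05 ± 0.07 (SD over 4 pairs; adjusted p = 0.665 in limma; 95% interval -0.05 to 0.15).

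MANF, a small secreted ER protein that binds BiP, had values of 10.73, 10.79, 10.69 and 10.75 with pGRHL2 and 10.67, 10.61, 10.71 and 10.65 with pcDNA3. In 3 of 4 pairs the value was higher with pGRHL2, and the log2 FC was 0.08 ± 0.08 (SD over 4 pairs; adjusted p = 0.533 in limma). PDIA6, a disulfide isomerase, had values of 11.60, 11.66, 11.60 and 11.48 with pGRHL2 and 11.50, 11.43, 11.49 and 11.61 with pcDNA3. Its groups overlapped because pair 4 ran the other way, and the log2 FC was 0.07 ± 0.15 (SD over 4 pairs; adjusted p = 0.644 in limma). In GENCODE release 44, 25.2% of the exon bases of PDIA6 are shared with ATP6V1C2, and counting was without strand. The part of these shared bases in its values was not tested.

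The other members of this group stayed in the same range. The log2 FC of HSP90B1 (the Hsp90 of the ER, also known as GRP94) was -0.007 and that of the lectin chaperone CANX -0.02, while CALR, its soluble counterpart, had 0.04. The ER Hsp70 relative HYOU1 had a log2 FC of 0.007, SDF2L1, a BiP cofactor, 0.008, and CRELD2, an ER stress-inducible protein, 0.06. The disulfide isomerases PDIA3 and PDIA4 had 0.01 and 0.06. The 7 genes with an ER stress response element had log2 FC from -0.02 (CANX) to 0.07 (PDIA6), and 0 of them passed an unadjusted limma p under 0.05 or the adjusted test.

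Within the ER-associated degradation machinery, which returns misfolded proteins to the cytosol, 0 of 4 genes passed an unadjusted limma p under 0.05 or the adjusted test, and 1 of 4 (25%, against 24.0% of all genes) had groups that did not overlap. EDEM1, which delivers misfolded glycoproteins to degradation, had log2 values of 10.08, 10.08, 10.16 and 10.08 with pGRHL2 and 10.00, 10.00, 9.93 and 10.01 with pcDNA3. Every pGRHL2 library lay above every pcDNA3 library, with a log2 FC of 0.11 ± 0.07 (SD over 4 pairs), yet the limma adjusted p was 0.371. SEL1L, the adaptor of the HRD1 ubiquitin ligase, had values of 10.24, 10.32, 10.25 and 10.21 with pGRHL2 and 10.34, 10.26, 10.33 and 10.37 with pcDNA3. These groups overlapped through pair 2, and the log2 FC was -0.07 ± 0.09 (SD over 4 pairs; adjusted p = 0.627 in limma). SYVN1, which encodes HRD1 itself, had a log2 FC of -0.04, and HERPUD1, its ER membrane partner, -0.01.

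The ISR transcription factors and regulators included PPP1R15A, the member with the largest difference. Of these 7 genes, 6 had a log2 FC below 0, the median was -0.058, 2 (28.6%, against 16.0% of all genes) passed an unadjusted limma p under 0.05 and 0 passed the adjusted test. Under other scalings and with trends removed the median lay between -0.0625 and -0.0447. PPP1R15A encodes GADD34, the phosphatase subunit that removes the phosphate from eIF2 and restores translation. Its log2 values were 10.97, 10.92, 11.30 and 11.20 in pGRHL2 libraries 1 to 4 and 11.65, 11.70, 11.32 and 11.42 in pcDNA3 libraries 1 to 4. The groups did not overlap, but the gap was wide in pairs 1 and 2 (-0.68 and -0.77), smaller in pair 4 (-0.22) and nearly closed in pair 3 (-0.02). The log2 FC was -0.42 ± 0.36 (SD over 4 pairs; 95% interval -0.69 to -0.16), with an unadjusted limma p of 0.00594 and an adjusted p of 0.109. With arrayWeights both libraries of a pair had the same weight, 1.67, 1.09, 0.766 and 0.713 in pairs 1 to 4. The pairs with the wide gap thus weighed most. With these weights the limma adjusted p was 0.0394 (log2 FC -0.51), in a fit that called 4.12% of all genes. Without the block it was 0.0258, but that fit counts 6 residual degrees of freedom where 3 exist and called 18.5% of all genes.

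ATF4, the central transcription factor of the ISR, had log2 values of 12.73, 12.67, 12.72 and 12.77 with pGRHL2 and 12.85, 12.90, 12.86 and 12.81 with pcDNA3. Every pGRHL2 library lay below every pcDNA3 library by a small margin. The log2 FC was -0.13 ± 0.08 (SD over 4 pairs; adjusted p = 0.183 in limma), a fold of 0.911. Its unadjusted p in limma was 0.0159. The adjusted p was 0.0125 in limma without the block, a fit that overcounts the degrees of freedom and called 18.5% of all genes. ATF4 is controlled largely at translation, which RNA levels do not measure.

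DDIT3 encodes CHOP, the transcription factor of stress-induced cell death. Its log2 values were 7.39, 7.39, 7.37 and 7.58 with pGRHL2 and 7.53, 7.53, 7.55 and 7.35 with pcDNA3. The first 3 pairs lay between -0.18 and -0.14 and pair 4 at 0.23, so the groups overlapped, and the log2 FC was -0.06 ± 0.19 (SD over 4 pairs; adjusted p = 0.781 in limma). In GENCODE release 44, 39.6% of the exon bases of DDIT3 are shared with other genes, 27.2% with MARS1. SESN2, a stress-induced inhibitor of mTORC1 signaling, had values of 8.11, 8.02, 8.15 and 8.21 with pGRHL2 and 8.23, 8.31, 8.19 and 8.13 with pcDNA3. Pairs 1 to 3 were lower with pGRHL2 and pair 4 higher, giving a log2 FC of -0.09 ± 0.16 (SD over 4 pairs; adjusted p = 0.587 in limma).

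CHAC1 had log2 values of 0.59, 0.62, 0.60 and 0.62 with pGRHL2 and 0.60, 0.57, 0.58 and 0.57 with pcDNA3. These values were nearly flat across libraries, and the log2 FC was 0.03 ± 0.03 (SD over 4 pairs; adjusted p = 0.377 in limma). TRIB3, a pseudokinase induced by ATF4 and CHOP, had a log2 FC of -0.03, and ATF5, a relative of ATF4 that is also controlled at translation, -0.004.

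The amino acid and one-carbon enzymes, many of which ATF4 induces, had a median log2 FC of 0.052 over 6 genes, 5 of them above 0, and between 0.0475 and 0.0762 with other scalings or trends removed. Of these genes 1 (16.7%, against 16.0% of all genes) passed an unadjusted limma p under 0.05 and 0 the adjusted test. PCK2, the mitochondrial phosphoenolpyruvate carboxykinase, had log2 values of 11.17, 11.12, 11.09 and 11.08 with pGRHL2 and 10.91, 10.96, 10.99 and 11.01 with pcDNA3. The groups did not overlap, and the pair differences lay between 0.07 and 0.26. The log2 FC was 0.15 ± 0.08 (SD over 4 pairs; adjusted p = 0.221 in limma), the highest of the 34 genes. The unadjusted p in limma was 0.0235. In limma without the block, which overcounts the degrees of freedom and called 18.5% of all genes, the adjusted p was 0.013. Neither PCK2 nor ATF4 passed the adjusted test, and their values lay on opposite sides of 0. The part of ATF4 in the PCK2 values was not tested.

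PSAT1, an enzyme of serine synthesis, had values of 11.54, 11.64, 11.45 and 11.51 with pGRHL2 and 11.42, 11.31, 11.50 and 11.45 with pcDNA3. Pair 2 was widest at 0.33 and pair 3 ran the other way, so the groups overlapped, with a log2 FC of 0.11 ± 0.16 (SD over 4 pairs; adjusted p = 0.461 in limma). ASNS, a standard readout of the ISR, had values of 2.59, 2.55, 2.60 and 2.57 with pGRHL2 and 2.53, 2.57, 2.53 and 2.55 with pcDNA3. The groups overlapped, and the log2 FC was 0.03 ± 0.04 (SD over 4 pairs; adjusted p = 0.552 in limma). In GENCODE release 44, 49.3% of the exon bases of ASNS lie within another annotated gene, and the annotation used for counting was not given in the sources used here, so how reads over those bases were assigned is unknown. PHGDH, the enzyme at the entry of serine synthesis, had a log2 FC of -0.007, and the one-carbon enzymes SHMT2 and MTHFD2, the latter with the GRHL2 word in its promoter, had 0.06 and 0.05. VLDLR, a lipoprotein receptor of the list, had a log2 FC of 0.02.

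**Figure D3:**
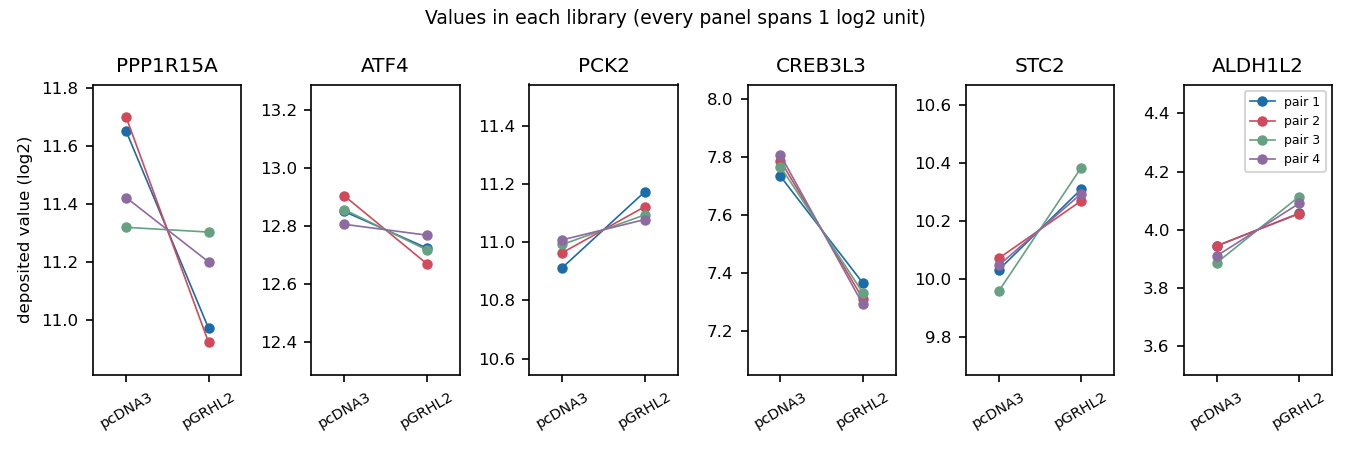
Deposited log2 values of 3 members with the smallest p (PPP1R15A, ATF4 and PCK2) and of the 3 related genes that passed the adjusted test (CREB3L3, STC2 and ALDH1L2), with lines joining the libraries of a pair and every panel spanning 1 log2 unit. The lines of PPP1R15A differ in slope between pairs, from -0.77 to -0.02, whereas those of CREB3L3 run close together, from -0.51 to -0.37.

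The differences varied from pair to pair. The median difference of the 11 chaperones and folding enzymes was 0.0634 in pair 1, 0.178 in pair 2, -0.0105 in pair 3 and -0.0861 in pair 4. In pair 2, all 11 were higher in the pGRHL2 library, by 0.07 to 0.34, and 9 of 11 had their highest difference in that pair. Over the whole list, 18 of 34 members had their highest difference in pair 2, against 25.8% of all genes. The 4 degradation genes were also above 0 in pair 2, and the 6 amino acid and one-carbon enzymes had a median of 0.239 there, with 5 above 0. The ISR factors and regulators went the other way in pair 2, with a median of -0.137 and 6 of 7 below 0.

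The chaperones were above 0 in 11 of 11 cases in pair 2 under each of the scalings tried and with trends removed, with medians between 0.168 and 0.202. Hepatocyte and hepatoma markers were also higher in that pair. In pair 2, 9 of 9 (ALB, AFP, APOA1, APOB, TTR, TF, SERPINA1, HNF4A and FGB) were higher with pGRHL2, by 0.01 to 0.77 and with a median of 0.318, although 6 of 9 were so after quantile normalization and 8 of 9 with trends removed. Their summed level was 18.20 to 18.40 (log2) in pGRHL2 libraries and 18.10 to 18.30 in pcDNA3 libraries, with both extremes of 18.40 and 18.10 in pair 2. Each gene is mirrored within a pair in this table, so these extremes are not separate observations. In pairs 1, 3 and 4 the median of the hepatocyte and hepatoma markers was -0.0279, -0.0457 and -0.119, against 0.0634, -0.0105 and -0.0861 for the chaperones. Of these markers, 0 of 9 passed the adjusted limma test over all pairs, and FGB had an unadjusted limma p of 0.0303 (log2 FC 0.28, adjusted p = 0.249). The part of these markers in the pair 2 differences of the chaperones was not tested. The sums of other marker lists also differed in pair 2. The summed level of the listed leukocyte markers was 13.43 with pGRHL2 and 13.12 with pcDNA3. Nearly all of this sum was LYZ, whose pair 2 difference was 0.31, against 0.004 for CD14. The summed level of the cholangiocyte markers was 14.11 with pGRHL2 and 14.36 with pcDNA3. Among the cholangiocyte markers KRT19 was lower with pGRHL2 (-0.34), while EPCAM, SOX9 and KRT7 were higher (0.11, 0.13 and 0.07).

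**Figure D4:**
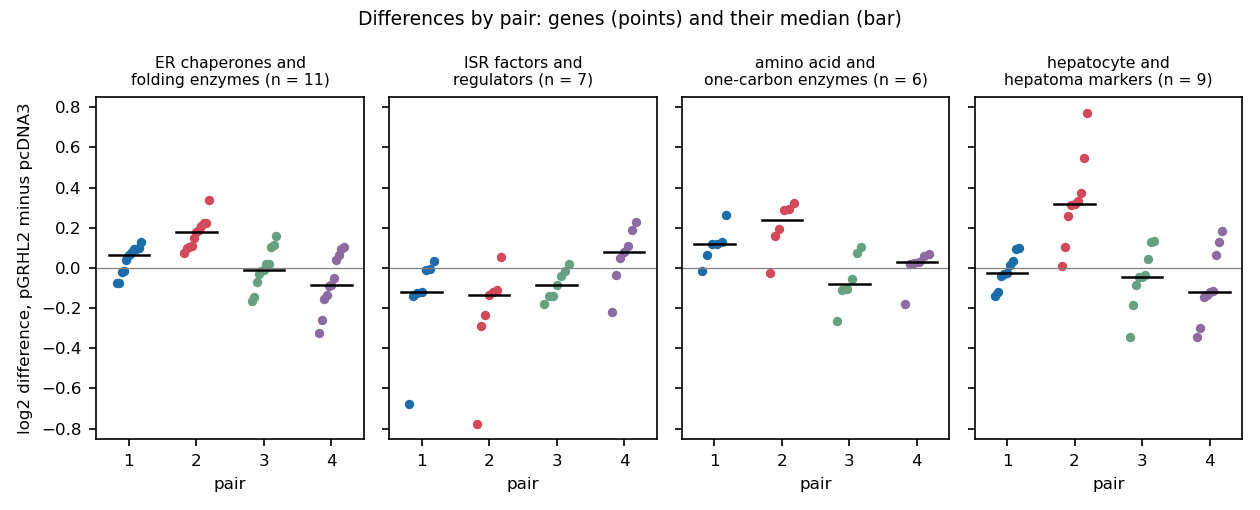
Difference of log2 values (pGRHL2 minus pcDNA3) of each gene (points) and their median (bar) in pairs 1 to 4, for 11 chaperones and folding enzymes, 7 ISR factors and regulators, 6 amino acid and one-carbon enzymes and 9 hepatocyte and hepatoma markers. Chaperones and hepatocyte markers all lie above 0 in pair 2 (medians 0.178 and 0.318) and mostly below 0 in pair 4 (-0.0861 and -0.119), whereas ISR factors have medians below 0 in pairs 1 to 3 and above 0 in pair 4.

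Of 124 further genes listed for the same responses, 121 were in the table. Of these, 2 rose and 1 fell with pGRHL2 at a limma adjusted p under 0.05, 10 of 121 (8.26%) passed an unadjusted p under 0.05, and the groups of 21 (17.4%) did not overlap. Their median log2 FC was 0.0031. The share called, 2.48%, was near the 2.19% of all genes, while the other shares were below those of all genes (16.0% at the unadjusted p and 24.0% for groups that do not overlap).

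CREB3L3, a liver-enriched ER-bound transcription factor related to ATF6 that controls acute phase and lipid genes, fell. Its log2 values were 7.37, 7.31, 7.33 and 7.29 with pGRHL2 and 7.73, 7.79, 7.77 and 7.81 with pcDNA3, groups that were far apart in every pair. The log2 FC was -0.45 ± 0.06 (SD over 4 pairs), a fold of 0.733, with an adjusted p of 0.00545 in limma. CREB3L3 stayed past the threshold without each replicate in turn (limma adjusted p between 0.0302 and 0.0363). It did not when the spread was estimated without a trend on level (0.0548), a fit that called only 0.0342% of all genes.

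STC2, a secreted glycoprotein that ATF4 induces, rose. Its values were 10.31, 10.27, 10.38 and 10.29 with pGRHL2 and 10.03, 10.07, 9.96 and 10.05 with pcDNA3, a log2 FC of 0.29 ± 0.10 (SD over 4 pairs; adjusted p = 0.047 in limma). ALDH1L2, the mitochondrial formyltetrahydrofolate dehydrogenase and an ATF4 target, rose as well. Its values were 4.06, 4.06, 4.11 and 4.09 with pGRHL2 and 3.94, 3.94, 3.89 and 3.91 with pcDNA3, a log2 FC of 0.16 ± 0.06 (SD over 4 pairs; adjusted p = 0.0484 in limma). Neither pair of groups overlapped, but both genes were just past the threshold. Both lost the call without any 1 of the 4 replicates (limma adjusted p between 0.0869 and 0.224 for STC2 and between 0.115 and 0.148 for ALDH1L2). Those fits called 0.495% to 1.28% of all genes. Both also lost it with libraries centered on their medians (0.052 and 0.0583). ALDH1L2 lost it also after quantile normalization (0.0874), with the level trend removed (0.087) and with trends on transcript length, level and GC content removed (0.0547). Both lost it with the spread estimated without a trend (0.0953 for STC2 and 0.121 for ALDH1L2), where only 0.0342% of all genes were called.

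By role, 0 of 17 co-chaperones and folding factors were called by limma and 3 had an unadjusted p under 0.05 (17.6%, near the 16.0% of all genes), namely HSPA13, an Hsp70 relative of microsomes (log2 FC -0.19, adjusted p = 0.125), the thioredoxin-domain protein TXNDC11 (-0.15, adjusted p = 0.165) and the disulfide isomerase PDIA2 (0.10, adjusted p = 0.293). Of 12 degradation and quality control genes, 0 were called and 0 had an unadjusted p under 0.05. Of 17 translocation and ER exit genes, 0 were called and 1 had an unadjusted p under 0.05, the KDEL receptor KDELR3, which returns chaperones to the ER (0.17, adjusted p = 0.176). Among 9 sensors and factors CREB3L3 was the call, and its relative CREB3L1 had a log2 FC of 0.05 (adjusted p = 0.266).

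On the ISR side, 0 of 16 genes for eIF2 kinases, eIF2, eIF2B and their regulators were called. Of 13 genes for tRNA synthetases and tRNA export, 0 were called. Both lists had 0 genes at an unadjusted limma p under 0.05, and their medians were -0.011 and 0.013. Of 18 further factors and stress effectors STC2 was called, and BBC3, the pro-apoptotic protein PUMA, had a log2 FC of -0.17 (adjusted p = 0.192 in limma). Of 9 amino acid transporters 0 were called, with the glycine transporter SLC6A9 at an unadjusted p under 0.05 (0.15, limma adjusted p = 0.204). ALDH1L2 was the call among 10 metabolic enzymes. The ATF4 targets STC2 and ALDH1L2 rose, while ATF4 RNA had a log2 FC of -0.13 that did not pass the adjusted limma test. RNA levels do not measure translation of ATF4, and its part in these rises was not tested.

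**Figure D5:**
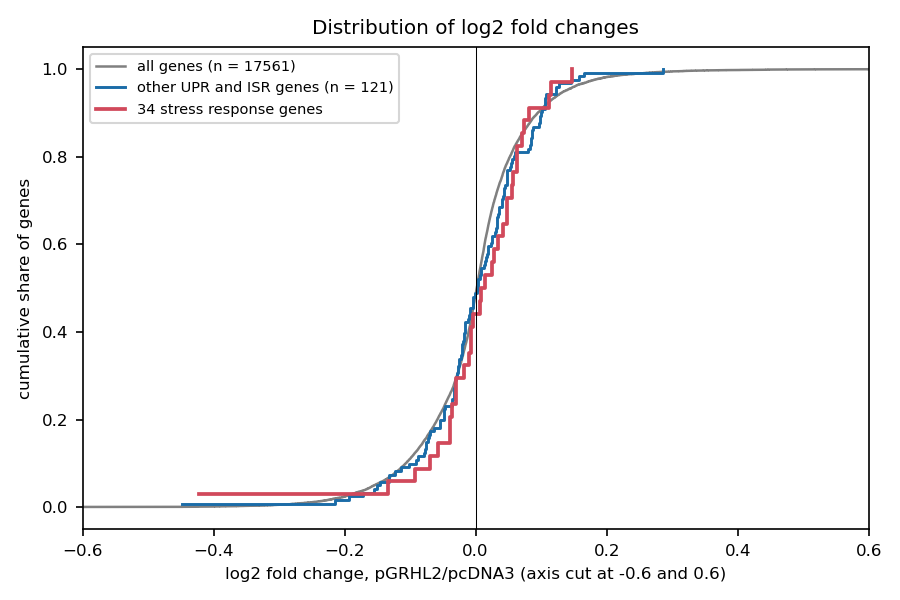
Cumulative share of genes against the log2 FC (pGRHL2/pcDNA3) for all 17561 genes (gray), 121 other UPR and ISR genes (blue) and the 34 stress response genes (red), with the axis cut at -0.6 and 0.6. The curves nearly coincide around medians of 0.0017, 0.0031 and 0.011, and the leftmost step of the red curve is PPP1R15A at -0.42.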

How the data were processed

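RNA-seq was performed on 8 libraries of HepG2 cells, 4 per plasmid, with groups and replicate numbers taken from the labels. Per the methods of the study, the authors aligned the reads with HISAT2 (hg38), counted those over exons with HTSeq 0.9.1 (union mode, unstranded, minimum alignment quality 10), removed genes under 10 reads, applied the rlog of DESeq2 and divided by mean transcript length. The submitters' processing notes give the same HTSeq version but other versions of HISAT2 and DESeq2 than the methods, so which were used is unclear. The deposited log2 values, in a table named as FPKM, ranged from -3.76 to 17.3, and 3.71% were below 0. Among 2965 genes that hardly varied, the slope of the level on log2 transcript length was -0.83. The equal pair means (17561 of 17561 genes, tolerance 1e-09) are not described in the methods. They make a correlation check of the pairing void, and they leave 3 residual degrees of freedom with the block, where a fit without it counts 6. In 1 value a stray character was removed.

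Values were fitted as deposited with limma 3.58.1 in R 4.3.3 (lmFit with the replicate number as a block, eBayes with trend), with Benjamini-Hochberg adjustment over 17561 genes and a threshold of 0.05. The members, role groups, further lists and markers were chosen with earlier results of these data known. Values per library were given for the 12 members with the smallest p and for HSPA5, XBP1, DDIT3, ATF4 and ASNS. Related genes were named where called, or, up to 3 per list, at an unadjusted p under 0.05. Exon bases shared between genes were taken from GENCODE release 44. Alternatives were eBayes without trend, robust eBayes, no replicate block, arrayWeights, 3 other scalings, a mean value of at least 5, an adjusted p under 0.01, leaving out each pair, and removing trends on level, or on GC content, transcript length and level, with the block (splines with 5 degrees of freedom).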

Additional observations from a re-analysis of the deposited data

Results flagged for a closer look

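Of 45 results examined (the differences of GRHL2, the members and the named related genes over the 4 pairs), 5 had 1 pair far from the other 3, by Dixon's 95% criterion. Chance gives about 1 in 20. The XBP1 difference was 0.26 in pair 2 and -0.02 to 0.03 in the others. The HYOU1 difference was -0.33 in pair 4 and 0.10 to 0.16 in the others, and the DDIT3 difference was 0.23 in pair 4 and -0.18 to -0.14 in the others, so that pair 4 alone ran opposite for both genes. The EDEM1 difference was 0.22 in pair 3 and 0.07 to 0.08 in the others. The difference of KDELR3 was 0.11 in pair 2 and 0.18 to 0.19 in the others.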

How the results depend on the processing

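The log2 values do not give the depth, so counting error could not be set apart from the spread between pairs. The fit without the replicate block counts 6 residual degrees of freedom where 3 exist, and it called 18.5% of all genes. It called 2 members higher (EDEM1 and PCK2), 2 lower (ATF4 and PPP1R15A) and 14 of 121 other pathway genes. In these balanced pairs the log2 FC is the same with and without the block, so no direction could change. With arrayWeights, which called 4.12% of all genes, 1 member was called lower (PPP1R15A). No other setting called a member. The 3 other pathway genes called became 0 with eBayes without trend, where 0.0342% of all genes were called. The count was 1 with median centring (2.08% of all genes called), at an adjusted p under 0.01 (0.495%) and without each replicate in turn (0.495% to 1.28%). It was 2 with quantile normalization, with a mean value of at least 5 (where ALDH1L2 was not tested) and with either set of trends removed. The median log2 FC of the members lay between -0.0065 (without replicate 2) and 0.035 (without replicate 4).

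Members near 0 changed sign. With arrayWeights the log2 FC was 0.00048 for HSP90B1, -0.00022 for PDIA3 and 0.047 for PHGDH. With quantile normalization it was 0.026 for HERPUD1, 0.0086 for ATF5 and 0.032 for PHGDH. With the same total without GRHL2 it was 0.0068 for HSP90B1, 0.0033 for HERPUD1, 0.0096 for ATF5 and 0.0067 for PHGDH. With the level trend removed it was 0.015 for HERPUD1, 0.015 for ATF5 and 0.023 for PHGDH. With GC content, length and level trends removed it was 0.0068 for EIF2AK3, 0.019 for HSP90B1, 0.015 for CANX, 0.0088 for HERPUD1 and 0.0051 for PHGDH. Without each replicate in turn the log2 FC ranged from -0.043 to 0.12 for HYOU1, -0.059 to 0.065 for SDF2L1, -0.043 to 0.032 for HERPUD1, -0.024 to 0.055 for VLDLR, -0.069 to 0.0064 for ATF6, -0.062 to 0.0011 for EIF2AK3, -0.019 to 0.14 for CALR, -0.016 to 0.044 for PDIA3, -0.029 to 0.13 for PDIA4, -0.067 to 0.031 for ATF5, -0.075 to 0.0072 for TRIB3, -0.032 to 0.10 for MTHFD2, -0.046 to 0.020 for HSP90B1, -0.11 to 0.079 for PHGDH, -0.10 to 0.039 for CREB3L2 and -0.049 to 0.0061 for CANX. The cause was not tested.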
